A study of Mus musculus with 24 samples.

Results

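Iron is taken up, stored and sensed through a small set of transcripts, and 9 of them were followed here in murine erythroleukemia (MEL) cells: Tfrc, Slc11a2 and Steap3 for uptake, Fth1, Ftl1 and Ncoa4 for storage and release, and Aco1, Ireb2 and Fbxl5 for regulation. Their protein-protected sites (PPSs), stretches of RNA that bound protein shields from a nuclease, were taken as every PPS that overlapped the gene body on the same strand. This gave 584 PPSs out of 460777 in the series, of which 159 were from day 0, 221 from day 2 and 204 from day 4. PPSs were found in 8 of the 9 genes, and no PPS overlapped Fth1 in the lists analysed here.

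MEL cells are a mouse leukemia line arrested at an early erythroid stage, and DMSO makes them differentiate. Protein interaction profile sequencing (PIP-seq) was carried out on undifferentiated cells (day 0) and on cells grown with DMSO for 2 days (day 2) or 4 days (day 4), all crosslinked with formaldehyde. At each day there were 2 replicates, and each was digested with a nuclease specific for single-stranded RNA (ssRNase) or for double-stranded RNA (dsRNase), either with proteins in place or after their removal, which gave 24 libraries in 12 groups of 2. Every DMSO group is a later time point, so the effect of DMSO and of time in culture cannot be told apart, and a single cell line was used.

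Erythroid cells need large amounts of iron for heme. Iron bound to transferrin enters through the transferrin receptor (Tfrc), is reduced in the endosome by Steap3 and is moved to the cytosol by Slc11a2 (DMT1). Ferritin, built from the Fth1 and Ftl1 chains, stores iron, and Ncoa4 carries ferritin to the lysosome for its release. The iron regulatory proteins, encoded by Aco1 (IRP1) and Ireb2 (IRP2), bind hairpins called iron-responsive elements (IREs) when iron is scarce. Binding in a 5′ UTR blocks translation, as in the ferritins, and binding in the 3′ UTR of Tfrc protects the mRNA from decay. Fbxl5 marks the iron regulatory proteins for degradation when iron is plentiful.

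IREs were located in the reference sequence to see whether PPSs fell on them. The search pattern was a C, then 5 nt, the loop CAGTGN and 5 nt more, with 4 or more of the 5 possible base pairs around the loop, G-U pairs allowed, on the transcript strand and wholly within a UTR of a protein-coding transcript. It gave 7 matches in 4 of the genes: 4 in the 3′ UTR of Tfrc, 1 in the 3′ UTR of a Slc11a2 isoform and 1 each in the 5′ UTRs of Fth1 and Ftl1. Among all genes, 0.986% of 20900 with a 5′ UTR and 4.02% of 21671 with a 3′ UTR held the pattern at least once. The 7 windows of 29 nt are shown with their GRCm38 positions because the protection results turn on them, with the loop in capitals.
Tfrc IRE 1 (chr16:32631219-32631247, + strand): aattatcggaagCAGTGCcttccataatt
Tfrc IRE 2 (chr16:32631598-32631626, + strand): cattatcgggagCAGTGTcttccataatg
Tfrc IRE 3 (chr16:32631663-32631691, + strand): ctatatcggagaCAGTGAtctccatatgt
Tfrc IRE 4 (chr16:32631710-32631738, + strand): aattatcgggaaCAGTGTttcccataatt
Fth1 (chr19:9982732-9982760, + strand): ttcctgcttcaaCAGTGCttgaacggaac
Ftl1 (chr7:45459779-45459807, − strand): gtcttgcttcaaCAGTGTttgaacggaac
Slc11a2 (chr15:100395153-100395181, − strand): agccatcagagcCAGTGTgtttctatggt

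The Fth1 and Ftl1 hairpins were identical at 16 of the 17 nt of the core and at 26 of 29 nt of the window. The Tfrc cores shared 11 to 15 of 17 nt with each other. The Slc11a2 match formed 4 of the 5 base pairs and the other 6 formed all 5.

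Of the 7 IREs, 3 lay in a PPS at day 0, 1 at day 2 and 5 at day 4. A PPS counted from 1 nt of overlap with the 17-nt core, the pattern itself without the 6 nt shown on each side, and PPSs of 20 to 40 nt, the size of a ribosome footprint, were left out of this and all later values unless stated. The rise came from Tfrc, where 2 of 4 IREs lay in a PPS at day 0, 0 at day 2 and 4 at day 4. At day 4 every PPS on an IRE came from dsRNase calls: 5 IREs in replicate 1 and 3 in replicate 2. For all 3′ UTR matches in genes with a PPS that day, the share in a PPS was 8.75% of 480 at day 0, 7.24% of 511 at day 2 and 12.8% of 484 at day 4. For 5′ UTR matches it was 18.6% of 97, 15.8% of 101 and 12% of 92. These shares take no account of how much of each UTR was covered. Of the whole Tfrc 3′ UTR, 32.1%, 18.5% and 66.2% lay in a PPS at day 0, 2 and 4, pooled over replicates. With 2 replicates a day, an exact permutation test cannot go below a two-sided p of 0.333, so no p is given for this or any other comparison between days.

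Tfrc IRE 1 was free of kept PPSs at day 0 and day 2, although a 33-nt PPS of the ribosome size class, called with ssRNase in replicate 2, overlapped it at day 2. At day 4 it lay inside a 52-nt PPS with a score of 32.73 that rested on dsRNase replicate 1 alone. IRE 2 lay inside a 95-nt PPS at day 0, with the lowest deposited score of 5.4 and 1 dsRNase call of replicate 2, and inside a 149-nt PPS at day 4 with a score of 33.58 and calls of both dsRNase replicates. The core of IRE 3 was free at day 0, although PPSs on both sides reached into its 29-nt window, so that by windows, a count added after the values had been seen, 4 of the 7 IREs were touched at day 0, 1 at day 2 and 5 at day 4. At day 4, 8 of the 17 nt of its core were covered, by PPSs from both sides. IRE 4 lay inside a 53-nt PPS at day 0 with a score of 12.22, called with ssRNase in replicate 1 and dsRNase in replicate 2. At day 4 it lay inside a 61-nt PPS with a score of 22.52 and calls of both dsRNase replicates. At day 4, IRE 2, IRE 3 and IRE 4 were thus in PPSs of both dsRNase replicates, which held for none of the 4 at day 0.

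The Tfrc 3′ UTR also holds a hairpin with the loop CAGAGT in place of CAGTGN, found by a search added after the values had been seen.
Tfrc, variant loop (chr16:32631160-32631188, + strand): atttatcagtgaCAGAGTtcactataaat
Of its 17 nt, 2 were covered at day 0, 0 at day 2 and 14 at day 4, by PPSs with calls of both dsRNase replicates at day 0 and day 4.

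**Figure D1:**
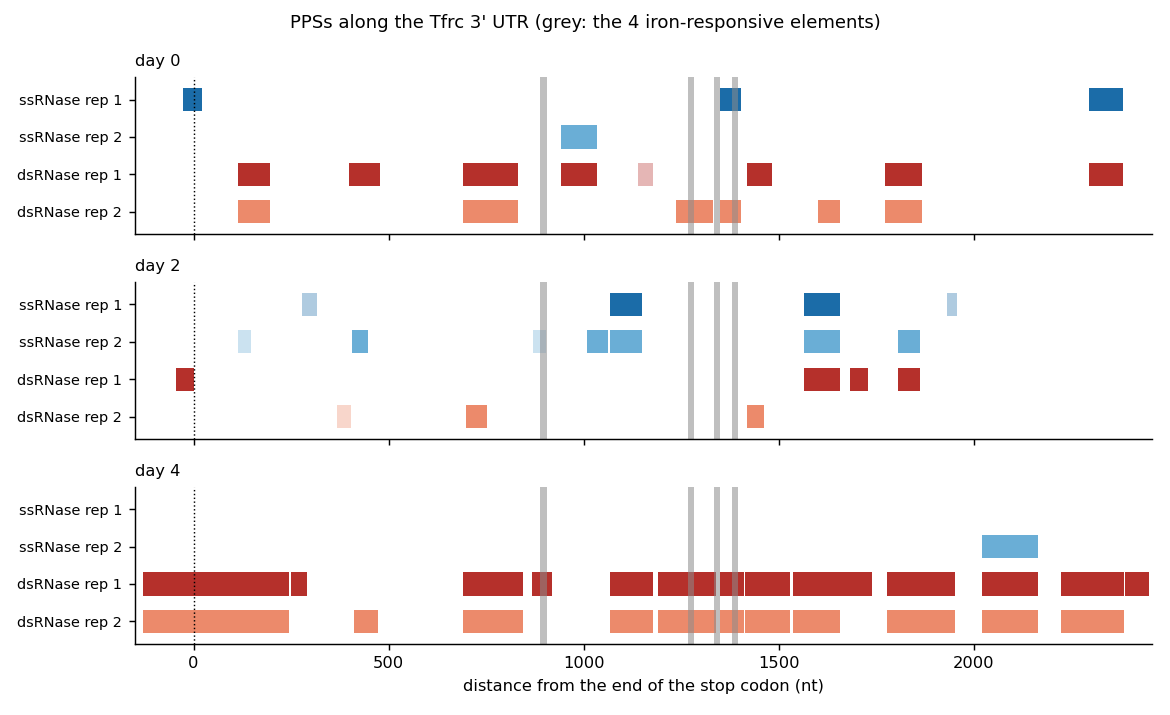
PPSs along the Tfrc 3′ UTR at each day, drawn once for every call set that contributed to them (rows: ssRNase and dsRNase, replicates 1 and 2), against the distance in nt from the end of the stop codon (dotted line). Grey bars are the 4 IREs, pale boxes are PPSs of 20 to 40 nt, and the dsRNase rows of day 4 are the most densely filled, with 15 PPSs against 1 in the ssRNase rows.

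The window from Tfrc IRE 1 to IRE 4 spans 508 nt. At day 0, 9.25% and 17.9% of it lay in PPSs of ssRNase replicates 1 and 2, and 17.9% and 28.0% in those of dsRNase. At day 2 the ssRNase values were 16.1% and 26.8%, and both dsRNase values were 0. At day 4 the order was turned, with both ssRNase values at 0 and the dsRNase values at 66.7% and 60.6%. The dsRNase replicates of day 4 therefore lay above all other call sets of the 3 days.

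Tfrc (chr16:32608920-32632794, + strand) had the highest exonic coverage of the 9 genes at every day. Exonic coverage is the percentage of a gene's exonic nt that lay in a PPS, and a replicate's value uses the PPSs with at least 1 call of that replicate. It was 27.9% and 27.5% in replicates 1 and 2 at day 0, 11.8% and 18.3% at day 2 and 49.7% and 48.4% at day 4. Both replicates fell below day 0 at day 2 and rose above it at day 4, by 21.4 percentage points on average. Pooled over replicates, Tfrc ranked 265 of 8415 protein-coding genes with a PPS at day 0, 468 of 8685 at day 2 and 54 of 8188 at day 4. The lists hold no RNA level, so more Tfrc RNA and more protection of each Tfrc RNA cannot be told apart, and this holds for every gene below.

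Across the 8 genes with a PPS, replicates that did not overlap between days were counted, and the same rule was applied to all protein-coding genes with an exonic PPS in either day. At day 2 against day 0, Ftl1 and Steap3 were higher, 2 of 8 genes, where 22.9% of 9323 genes were higher. Tfrc, Ireb2, Aco1, Ncoa4 and Fbxl5 were lower, 5 of 8, where 31.2% were lower. At day 4 against day 0, only Tfrc was higher, where 32.0% of 9190 genes were, and 0 were lower, where 26.4% were. These counts were 1 to 6 higher and 1 to 3 lower when 1 replicate at a time was left out, with 6 higher without day 4 replicate 2, 4 higher without day 0 replicate 1 and 3 lower without day 4 replicate 1, and they were 4 and 2 with PPSs that scored 10 or more. At day 4 against day 2, Tfrc, Ireb2, Aco1, Ncoa4 and Fbxl5 were higher, 5 of 8 against 35.3% of 9147 genes, and Steap3 alone was lower against 20.1%. The rule thus called over 1 in 2 genes in one direction or the other at each comparison, and the counts of these genes are a description. The replicates of a day share merged PPSs, so their spread understates that between cultures. The median change of pooled coverage was -1.60 percentage points for the 8 genes from day 0 to day 2, against -0.595 for all genes tested. From day 0 to day 4 it was 1.59 against 0.0702, and from day 2 to day 4 it was 4.23 against 0.681.

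**Figure D2:**
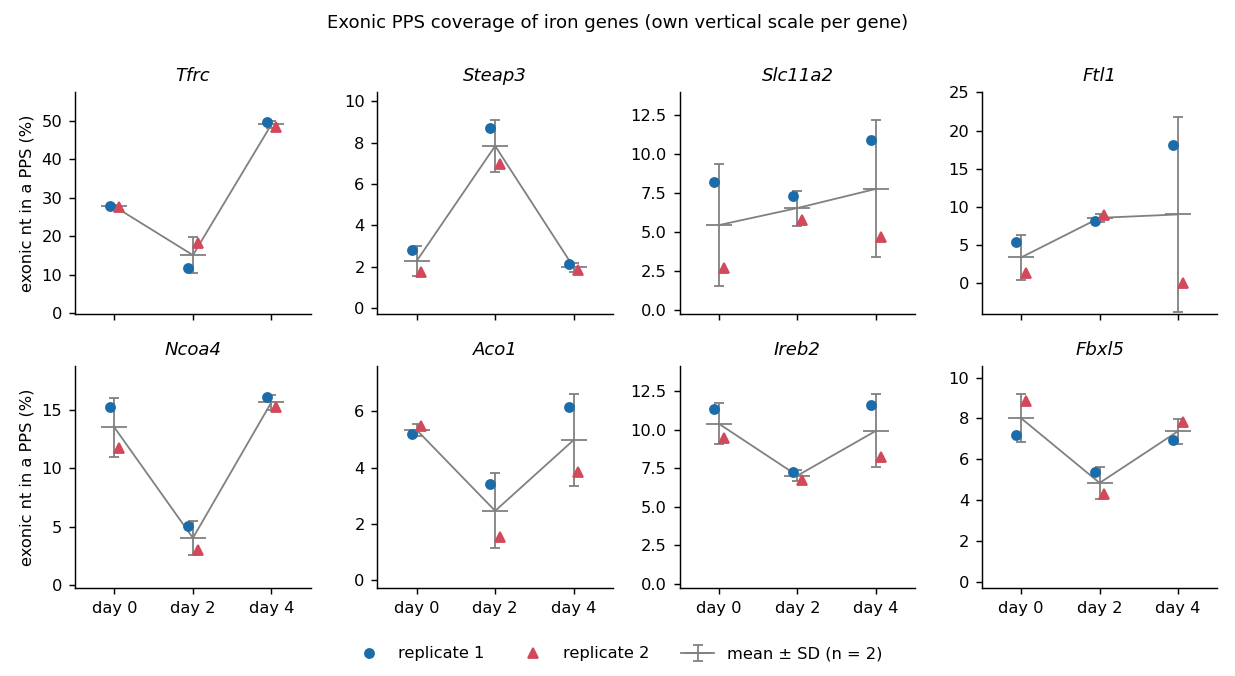
Exonic coverage by PPSs (percentage of exonic nt, vertical axis with its own scale for each gene) of the 8 iron genes with a PPS at day 0, day 2 and day 4, with points for replicates 1 and 2 and bars for the mean ± SD (n = 2). Tfrc, Ncoa4, Aco1, Ireb2 and Fbxl5 dip at day 2, Steap3 peaks there, and the Ftl1 replicates part at day 4 (18.1% and 0%).

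**Figure D3:**
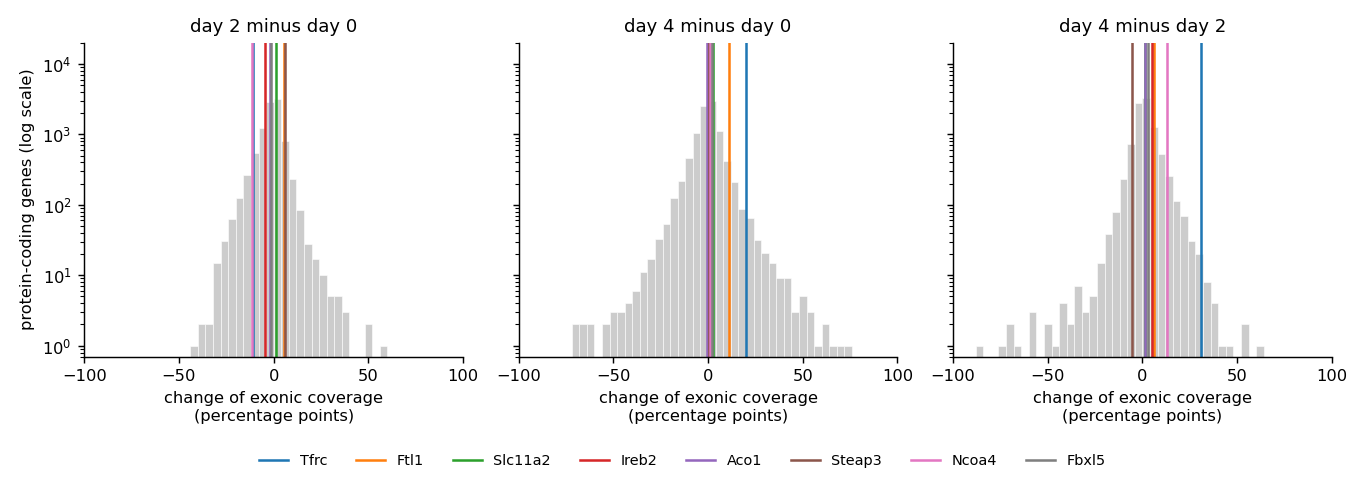
Change of pooled exonic coverage in percentage points (horizontal axis), with grey bars for the number of genes (log scale) and a coloured line for each iron gene. The bars count protein-coding genes with a unique name and a kept exonic PPS at any of the 3 days. At day 4 minus day 2 Tfrc lies in the right tail, at 31.1 percentage points, and Steap3 lies left of 0, at -5.76.

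The Tfrc change differed between the nucleases. With dsRNase, exonic coverage was 19.7% and 17.7% at day 0, 6.21% and 6.13% at day 2 and 48.3% and 48.3% at day 4. With ssRNase it was 13.3% and 15.9% at day 0, 7.26% and 14.4% at day 2 and 8.75% and 11.0% at day 4. From day 0 to day 4 both dsRNase replicates rose and both ssRNase replicates fell. For all genes, 30.5% of 8515 were higher at day 4 with dsRNase and 24.2% of 8440 were lower with ssRNase. Of the other genes, Ireb2 and Aco1 were also lower with ssRNase at day 4 than at day 0, which made 3 of 7 tested, and Fbxl5 was lower with dsRNase, where 19.6% were.

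In the 3′ UTR of Tfrc, dsRNase coverage was 23.7% and 19.3% at day 0, 7.45% and 3.59% at day 2 and 62% and 57.6% at day 4. Its ssRNase coverage was 6.04% and 3.37%, then 7.37% and 12.2%, then 0% and 5.26%. The dsRNase replicates of day 4 stood apart from all others, and at day 2 the direction was the opposite, with ssRNase higher and dsRNase lower than at day 0, where 18.7% and 29.5% of genes were. In the dsRNase lists of day 4 this 3′ UTR ranked 78 of 8112 genes, whose median was 3.09%. The stretch of 2458 nt after the stop codon of the transcript with the IREs held 15 PPSs at day 4, all with a dsRNase call and 10 with calls of both dsRNase replicates, against 11 at day 0, 3 with both, and 9 at day 2, 0 with both. Their median length was 82 nt at day 0, 54 nt at day 2 and 115 nt at day 4. The highest-scoring PPS of the gene, at chr16:32630207-32630581, crossed the stop codon at day 4, was 375 nt long, scored 76.17 and was merged from 6 dsRNase calls.

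The dsRNase call sets were larger at day 4, with 54935 and 40195 PPSs against 27862 and 32624 at day 0 and 30485 and 14832 at day 2. When the 14832 top-scoring PPSs of every call set were used, a comparison added after the values had been seen, dsRNase coverage of the Tfrc 3′ UTR was 18.4% and 11.8% at day 0, 5.56% and 3.59% at day 2 and 50.8% and 48.8% at day 4. With equal lists, both dsRNase replicates of day 4 lay above all other call sets. The mean change of Tfrc exonic coverage from day 0 to day 4 was then 17.4 percentage points. A merged PPS has a single score for all its call sets, so these lists were not ranked by a call set's own calls. The part of list size in the change was not tested. With these equal lists 6 of the genes were lower at day 4 than at day 0, against 0 with the lists as deposited, and Tfrc alone was higher. When only PPSs formed from 1 call were used, the mean change of Tfrc was 0.218 percentage points.

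In the Tfrc coding sequence (CDS), dsRNase coverage was 19.7% and 19.4% at day 0, 4.75% and 9.04% at day 2 and 42.2% and 47.2% at day 4. With ssRNase it was 23.7% and 26.9% at day 0, 8.02% and 17.9% at day 2 and 5.60% and 9.38% at day 4. At day 4 the dsRNase replicates were higher and the ssRNase replicates lower than at day 0, where 23.8% and 20.4% of genes were. The 5′ UTR of Tfrc, 247 nt long, had no dsRNase coverage at day 0 or day 4, and 9.31% and 30.4% with ssRNase at day 0 against 12.6% and 0% at day 4. Those 5′ UTR ranges overlapped. At day 2, with both nucleases together, 5′ UTR coverage was 0.810% and 5.67%. Both values lay below those of day 0, where 19.8% of 4359 genes were lower. Introns of Tfrc were covered at 9.19%, 9.89% and 10.9% at day 0, 2 and 4, pooled over replicates, where the median gene had 0.319%, 0.419% and 0.347%. Tfrc had 70 separate regions over the 3 days, of which 25 (35.7%) had a PPS at all 3 days.

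**Figure D4:**
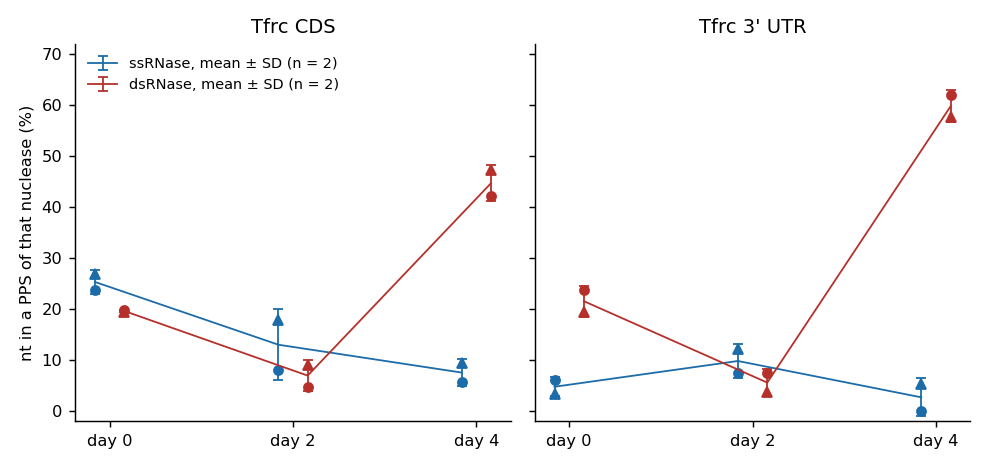
Percentage of the Tfrc CDS (left) and 3′ UTR (right) that lay in PPSs of ssRNase (blue) or dsRNase (red) at each day, with circles for replicate 1, triangles for replicate 2 and lines and bars for the mean ± SD (n = 2). The 3′ UTR dsRNase values go from 21.5% at day 0 through 5.52% at day 2 to 59.8% at day 4, while the ssRNase mean is 2.63% at day 4.

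Steap3 (chr1:120190757-120272705, − strand), the ferrireductase of the transferrin endosome, was the member whose coverage was highest at day 2. Exonic coverage was 2.80% and 1.75% at day 0, 8.73% and 6.96% at day 2 and 2.12% and 1.82% at day 4. Both day 2 replicates lay above all 4 others. Counting all lengths, 6 PPSs overlapped the gene on day 0, 24 on day 2 and 8 on day 4. The peak was in ssRNase calls, at 5.98% and 6.04% at day 2 against 0.805% and 0.840% at day 0, where 24.8% of genes were higher at day 2, and 1.10% and 0% at day 4, where 25.1% were lower than at day 2. With dsRNase the values were 1.99% and 0.910%, then 2.75% and 0.927%, then 1.01% and 1.82%, and they overlapped. In the CDS, coverage was 9.70% and 6.06% at day 0, 21.5% and 17.7% at day 2 and 3.82% and 3.03% at day 4. The highest-scoring PPS of day 2 lay in the CDS at chr1:120234295-120234381, with a score of 42.51 and calls of both ssRNase replicates. In the 3′ UTR, 3264 nt long, no kept PPS was found at day 0, and coverage was 4.44% and 3.25% at day 2 and 1.78% and 1.65% at day 4.

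Slc11a2 (chr15:100387898-100425072, − strand), the iron transporter of the endosomal membrane, overlapped between days in exonic coverage. Its values were 8.18% and 2.64% at day 0, 7.30% and 5.71% at day 2 and 10.8% and 4.63% at day 4. The CDS set day 2 apart from day 0, with 7.74% and 6.02% at day 0 against 9.73% and 11.9% at day 2, where 20.9% of genes were higher. The 3′ UTR, with all annotated forms joined, set day 4 apart from day 2, with 7.26% and 3.62% at day 2 against 11.2% and 7.54% at day 4, where 37.4% of genes were higher. Of all lengths, 15 PPSs overlapped the gene on day 0, 39 on day 2 and 27 on day 4. Slc11a2 transcripts end in alternative 3′ UTRs, and the IRE lies in the one of 2653 nt. The IRE itself was in no PPS at any day, and the nearest PPS was 29 nt away at day 0, 349 nt at day 2 and 478 nt at day 4. The 3′ UTR with the IRE was covered at 8.63%, 8.07% and 11.0% at the 3 days, pooled. The form of 1189 nt, without the hairpin, was covered at 12.4%, 6.90% and 17.3%. In the form with the hairpin the replicates were 8.63% and 2.11% at day 0 and 8.74% and 5.28% at day 4, and overlapped. In the form without it they were 12.4% and 0% at day 0 and 17.3% and 13.0% at day 4, and did not. That gap was narrow, from 12.4% to 13.0%, and the form held 2 PPSs of all lengths at each of these days. With all forms of a 3′ UTR joined, 31.9% of 6543 genes were higher at day 4 than at day 0. Whether the 2 Slc11a2 forms differed was not tested.

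Ftl1 (chr7:45457944-45459884, − strand), the ferritin light chain, carried the only IRE that lay in a PPS at all 3 days. The hairpin starts 84 nt from the annotated 5′ end, in a 5′ UTR of 253 nt. At day 0 it lay within a 73-nt PPS with a score of 6.82 and 1 call of dsRNase replicate 1. At day 2 it lay within a 67-nt PPS with a score of 25.26 and calls of ssRNase replicate 1 and both dsRNase replicates, the highest-scoring PPS of the gene at any day. At day 4 it lay within an 87-nt PPS with a score of 12.6 and 1 call of dsRNase replicate 1. The site was thus called in both replicates at day 2 alone.

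Coverage of the Ftl1 5′ UTR was 28.9% and 0% at day 0, 26.5% and 26.5% at day 2 and 51.8% and 0% at day 4 for replicates 1 and 2. Exonic coverage was 5.45% and 1.34%, then 8.21% and 8.96%, then 18.1% and 0%. Day 2 was above day 0, and the day 4 replicates lay on both sides of all other values, so that the pooled 18.1% of day 4 came from replicate 1 alone. Ftl1 held 19 PPSs of all lengths, of which 15 came from 1 call. A predicted miRNA gene, Gm22133, overlaps Ftl1 on the same strand, and a read there cannot be assigned to either.

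**Figure D5:**
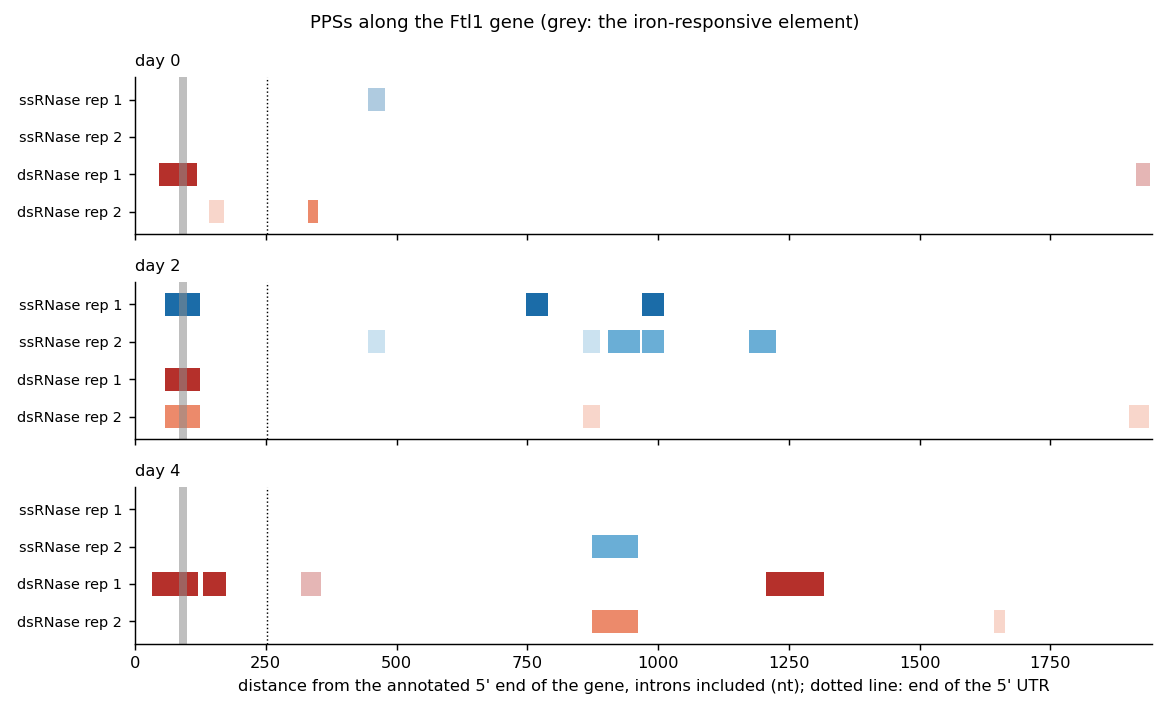
PPSs along the Ftl1 gene at each day for the 4 call sets (rows), against the distance in nt from its annotated 5′ end, introns included, with the end of the 253-nt 5′ UTR as a dotted line. The grey bar is the IRE, starting at 84 nt, which lies in a PPS of dsRNase replicate 1 at all 3 days and of 3 call sets at day 2; pale boxes are PPSs of 20 to 40 nt.

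Fth1 (chr19:9980598-9985098, + strand), the ferritin heavy chain, had no PPS of any length at any day or in any call set of the lists analysed here, in 3469 exonic nt, and this 0 is no measure of whether its RNA was protected. Of 14 annotated ferritin-like genes and pseudogenes, 1 held PPSs, the processed pseudogene Fth-ps2, with 4 at day 4. The study's aligner allowed up to 10 positions per read, and whether reads of Fth1 were split over such copies was not tested.

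Ncoa4 (chr14:32159865-32179855, + strand), the receptor for ferritin turnover, lost most of its exonic coverage at day 2 and regained it at day 4. Exonic coverage was 15.3% and 11.7% at day 0, 5.04% and 2.99% at day 2 and 16.1% and 15.2% at day 4. Both day 2 values lay below the other 4. The CDS was covered at 56.6% and 46.5% at day 0, 19.6% and 11.4% at day 2 and 46.7% and 45.5% at day 4. Day 2 was below day 0, where 30.0% of genes were, and with 59.5% pooled the CDS ranked 162 of 8362 genes at day 0. With dsRNase the CDS fell from 50.2% and 46.5% of the CDS at day 0 to 15.1% and 4.37% at day 2, where 29.7% of genes were lower. At day 4 its dsRNase coverage was 41.0% and 33.6%, below both day 0 values, where 20.5% of genes were lower. With ssRNase the values were 31.3% and 6.05% at day 0 and 4.53% and 7.07% at day 2, which overlapped. The longest PPS of the gene, 308 nt at chr14:32175949-32176256 in the CDS, was merged from 8 calls at day 0 and scored 62.09. In the 3′ UTR all coverage came from dsRNase calls. It was 11.5% and 8.82% at day 0, 4.29% and 0% at day 2 and 20.8% and 20.5% at day 4, so both day 4 replicates were above day 0.

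The 3′ UTRs of Tfrc, Steap3 and Ncoa4 were higher at day 4 than at day 0, which made 3 of 6 with a PPS, where 31.9% of 6543 genes were higher. With dsRNase alone they were joined by Ireb2, for 4 of 6 against 30.2% of 5995 genes. In the CDS, Ireb2, Steap3 and Fbxl5 were lower at day 4 than at day 0, 3 of 8 against 25.5% of 8652 genes, and Tfrc alone was higher, against 29.2%.

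Ireb2 (chr9:54863789-54912530, + strand), which encodes IRP2, had exonic coverage of 11.3% and 9.43% at day 0, 7.27% and 6.75% at day 2 and 11.6% and 8.25% at day 4. Day 2 lay below both other days, which overlapped. In its 3′ UTR the nucleases moved apart from day 0 to day 4, with dsRNase at 11.6% and 7.31% against 22.6% and 12.4%, and ssRNase at 9.71% and 6.88% against 0% and 5.30%, where 14.8% of genes were lower. Its highest-scoring PPS at day 0, with a score of 33.79, lay across the end of the CDS at chr9:54909631-54909765 and was merged from 5 dsRNase calls. At day 4 the highest, with 25.13, lay within the 3′ UTR at chr9:54911241-54911388.

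Aco1 (chr4:40143081-40198338, + strand), which encodes IRP1, a cytosolic aconitase when it holds an iron-sulfur cluster, was sparsely covered. Exonic coverage was 5.18% and 5.49% at day 0, 3.40% and 1.51% at day 2 and 6.14% and 3.83% at day 4. Of all lengths it had 7, 5 and 7 PPSs at the 3 days, of which 7, 4 and 6 touched the CDS and 0 the 3′ UTR. ssRNase coverage was 3.78% and 5.12% at day 0, 2.05% and 1.51% at day 2 and 0.734% and 0.734% at day 4. With dsRNase the values were 4.00% and 2.98%, then 1.36% and 0%, then 5.4% and 3.09%. From day 2 to day 4 both ssRNase replicates thus fell, where 25.1% of genes did, and both dsRNase replicates rose, where 40.3% did. At day 0 a PPS of 117 nt in the CDS, chr4:40164643-40164759, held calls of all 4 call sets and scored 38.91.

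Fbxl5 (chr5:43744615-43821638, − strand), the iron-sensing subunit of the ubiquitin ligase for the iron regulatory proteins, had exonic coverage of 7.19% and 8.84% at day 0, 5.4% and 4.30% at day 2 and 6.95% and 7.81% at day 4. The CDS was covered at 29.1% and 31.1% at day 0, 15.8% and 11.6% at day 2 and 24.9% and 23.0% at day 4, so that all 3 days were apart, and 33.0% of genes were higher at day 4 than at day 2. Pooled over replicates the CDS values were 33.2%, 20.2% and 34.8%, so the lower replicate values of day 4 came with PPSs that the replicates did not share. With dsRNase the CDS fell from 18.2% and 20.4% at day 0 to 11.0% and 11.6% at day 4, where 20.5% of genes were lower. A CDS site at chr5:43758541-43758708 was called in all 4 call sets at day 4, with a score of 49.31. Predicted genes Gm42462, Gm42555 and Gm43181 overlap Fbxl5 on the same strand.

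Over the 9 genes, 40.9% of the PPSs of all lengths touched the CDS, 24.8% the 3′ UTR, 2.23% the 5′ UTR and 38.0% an intron, with a PPS counted in each class it touched. Joined over the days, the kept PPSs formed 261 regions, of which 53 (20.3%) had a PPS at all 3 days. The share was 28.0% of 25 regions for Ncoa4 and 5.26% of 19 for Steap3.

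A wider list of 38 genes of iron transport, mitochondrial iron use and heme metabolism was set beside these. Of its 26 genes with an exonic PPS, 12 were higher and 5 lower at day 4 than at day 0, against 32.0% and 26.4% of all genes. Slc25a37 (mitoferrin 1), which brings iron into the mitochondrion, rose from 17.5% and 15.9% at day 0 to 72.9% and 68.0% at day 4. Abcb10, its partner in the inner membrane, rose from 7.78% and 3.53% to 30.5% and 32.4%. Alas2, the erythroid enzyme that starts heme synthesis, rose from 16.5% and 13.3% to 36.1% and 30.2%. Nfs1, the cysteine desulfurase of iron-sulfur cluster assembly, rose from 1.41% and 1.22% to 8.47% and 15.8%. Among those that fell, Hmox1, a heme-degrading oxygenase, went from 6.62% and 12.6% to 0% in both replicates, and Hmox2, the other such enzyme, from 11.7% and 15.5% to 7.71% and 4.29%. Slc25a28 (mitoferrin 2) fell from 29.8% and 27.6% to 24.8% and 26.6%. In this list the search pattern was found in UTRs of Slc40a1, Alas2 and Cdc14a, and these matches lay in no kept PPS at any of the 3 days.

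Over the 12 call sets, the genes whose exonic coverage ran most like that of Tfrc were Abi2, Prkx and Mob1a, with Pearson correlations of 0.956, 0.953 and 0.949 among 6881 genes. The points share libraries and list sizes, and no p is given. Mob1a, for example, was at 28.5% and 26.7% in the dsRNase call sets of day 4 and between 1.34% and 15.2% in the other 10.

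The 12 call sets held 20569 to 89671 PPSs, and day 2 dsRNase replicate 2 had the fewest. All 7 erythroid markers checked had a PPS, and 0 of 9 markers of T cells, B cells, myeloid cells and fibroblasts did. Exonic coverage of Hba-a1, an alpha globin, was 26.0%, 53.4% and 76.8% at day 0, 2 and 4, pooled. The lists do not give the depth of the libraries in reads.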

How the data were processed

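Libraries were grouped by day, nuclease, protein treatment and replicate from their titles. Per the study's methods and the submitters' processing notes, the authors trimmed reads with cutadapt 1.2.1, aligned them to mm10 with TopHat2 2.0.10 (up to 10 positions per read), called PPSs with a modified CSAR at an FDR of 5%, footprint against structure-only libraries, and merged the calls into 1 list per day. Each deposited PPS has a score, the authors' enrichment value, not below 5.4, and a name field that gave the 12 call sets. How libraries were scaled was not given in the sources used here. Single calls inside a merged PPS have no coordinates of their own, so a merged PPS counts for each of its call sets.

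Genes were taken from GENCODE release 21 of the mouse annotation (M21, GRCm38, the build mm10 names), hairpins were searched in its transcript sequences, and the printed windows were checked against RefSeq's GRCm38 genome. PPSs of 20 to 40 nt were left out of coverage, as in the study. Days were compared by whether both replicates of one day lay beyond both of the other. Named genes were the 9 members, up to 4 rises and 4 falls of the wider iron list, and the 3 genes most correlated with Tfrc. Some genes of the wider list are not reported here. The genes, lists and tests were chosen with earlier results of these data known. In simulated data, 200 of 200 genes given a PPS among 21528 were called, as were 6 of the 21328 others. The simulated replicates of a day were identical, so these counts check the code and give no rate of false calls. In simulated sequences, 200 of 200 planted hairpins were found. Python 3.11.15, numpy 2.4.6, pandas 2.3.3 and matplotlib 3.10.9 were used.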

Additional observations from a re-analysis of the deposited data

Results flagged for a closer look

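Of the comparisons of exonic, CDS and 3′ UTR coverage of these genes, every pairing of replicates moved one way with ssRNase and the other way with dsRNase in 8. Introns and 5′ UTRs were not searched for such cases. The share of all genes with such opposite moves was not computed, so 8 cannot be called many or few. With each nuclease alone such moves were common. From day 2 to day 4, 41.4% of 5565 genes were higher in the 3′ UTR with dsRNase and 16.2% of 4891 were lower with ssRNase. Exonic coverage includes the CDS and the 3′ UTR, so the cases of 1 gene are not independent. The difference between the nucleases itself was not tested. Each difference below is the mean dsRNase change minus the mean ssRNase change, in percentage points of coverage.

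Tfrc accounted for 4 of them. Its exonic coverage changed by -4.70 with ssRNase and 29.6 with dsRNase from day 0 to day 4, a difference of 34.3. Its CDS changed by -17.8 and 25.1 over the same days, a difference of 42.9. Its 3′ UTR changed by 5.06 and -16.0 from day 0 to day 2, a difference of -21.0, and by -7.13 and 54.3 from day 2 to day 4, a difference of 61.4. The number of PPSs in the dsRNase call sets moved the same way, with 14832 and 30485 kept PPSs at day 2 and 40195 and 54935 at day 4. With equal list sizes, ranked by the scores of merged PPSs, dsRNase coverage of the 3′ UTR was 50.8% and 48.8% at day 4. The part of the list sizes in the Tfrc differences was not tested.

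The 3′ UTR of Ireb2, which encodes IRP2, changed by -5.64 with ssRNase and 8.06 with dsRNase from day 0 to day 4, a difference of 13.7. The 3′ UTR of Steap3, the endosomal ferrireductase, changed by -3.20 and 1.07 from day 2 to day 4, a difference of 4.27. Exonic coverage of Aco1, which encodes IRP1, changed by -1.05 and 3.57 from day 2 to day 4, a difference of 4.62. The CDS of Slc11a2, the iron transporter, changed by 3.66 and -1.53 from day 0 to day 2, a difference of -5.19. The part of the list sizes in these differences was not tested.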

How the results depend on the processing

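Of 216 changes of exonic coverage recomputed under settings that left out no replicate, 126 were of days whose replicates did not overlap, of which 11 turned direction, and 90 of days whose replicates overlapped, of which 21 changed sign. All 96 with 1 replicate left out moved by less than the replicate spread. With 2 replicates a day that outcome is fixed in advance, so it tests nothing. With ssRNase calls only, Tfrc changed by -4.70 percentage points from day 0 to day 4 and by -0.962 from day 2 to day 4, Ireb2 by -0.796 and Aco1 by -1.05 from day 2 to day 4. With PPSs of 1 call only, the changes from day 0 to day 2 were 1.99 for Tfrc, 0.901 for Aco1 and 1.95 for Fbxl5, and those from day 2 to day 4 were -1.77 for Tfrc, -1.30 for Aco1 and 0.122 for Steap3. With equal list sizes per call set, Ireb2 changed by -0.100 from day 2 to day 4. The cause was not tested.

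Counts of genes higher or lower, of wider-list genes and of IREs in a PPS moved as follows. Keeping PPSs of 20 to 40 nt gave 1 gene higher at day 2 and 2 higher at day 4 than at day 0, and 2 IREs at day 2. With ssRNase calls only, 2 genes were lower at day 2 and 3 lower and 0 higher at day 4 than at day 0, 2 were higher and 3 lower at day 4 than at day 2, and the IREs in a PPS numbered 1 on day 0 and 0 on day 4. With dsRNase calls only, 0 genes were higher at day 2 than at day 0, 1 was lower at day 4 than at day 0, 0 were lower at day 4 than at day 2 and 3 wider-list genes were lower. With a score of 10 or more, 4 genes were higher and 2 lower at day 4 than at day 0, 8 wider-list genes were lower and 1 IRE lay in a PPS at day 0. Equal list sizes per day gave 1 gene higher at day 2 than at day 0, as did the longest-CDS transcript, which also gave 1 lower at day 4. With PPSs of 1 call only, 1 gene was higher and 1 lower at day 2 than at day 0, 1 was higher and 0 lower at day 4 than at day 2, 6 wider-list genes were higher and 3 lower, and the IREs in a PPS numbered 0 on day 2 and 2 on day 4. With calls of both replicates they numbered 1 on day 0 and 3 on day 4. Of the settings added after seeing the data, leaving out dsRNase replicate 2 of day 2 gave 1 gene higher at day 2 than at day 0. Equal list sizes per call set gave 6 genes lower at day 4 than at day 0, 10 wider-list genes lower, 3 genes higher and 2 lower at day 4 than at day 2, and 0 IREs at day 0.

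Leaving out 1 replicate at a time gave 2 to 3 genes higher and 5 to 6 lower at day 2 than at day 0, 1 to 6 higher and 1 to 3 lower at day 4 than at day 0, 5 to 7 higher and 1 to 3 lower at day 4 than at day 2, 13 to 16 wider-list genes higher and 5 to 9 lower, and 2, 1 and 3 to 5 IREs in a PPS at day 0, 2 and 4. The 6 genes higher at day 4 came without day 4 replicate 2, which leaves a single value on that day, and the 3 lower came without day 4 replicate 1; without day 0 replicate 1, 4 were higher. No paired analysis was possible because the comparisons come from no test and the labels tie no replicate of a day to one of another day. List sizes limit the calls, since a site missing from a short call set may lie below its threshold.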
